A study of Mus musculus with 63 samples.

Results

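The genes described here are 10 genes of vitamin A and alcohol metabolism, namely Adh1, Adh4, Adh7, Aldh1a1, Rbp2, Rdh7, Bco1, Dhrs3, Lrat and Isx, out of 54752 genes in the count tables. They were taken by gene name and were chosen by measured values, because the CPM of Adh4 and Aldh1a1 were low 3 days after 4-OHT and those of Adh1 differed between media. CPM are counts scaled to the size of the library. Those contrasts are therefore given below as descriptions, with no test. All 10 genes passed the filter on low counts in each of the 5 tables that were fitted.

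Vitamin A reaches the small intestine as retinyl esters and as carotenoids such as beta-carotene. Bco1 cleaves beta-carotene to retinal, and Isx is a homeobox transcription factor that represses Bco1 and the carotenoid receptor Scarb1 when retinoic acid is plentiful. In the enterocyte retinol is bound by Rbp2 and esterified by Lrat for export in chylomicrons. Retinol is otherwise oxidized to retinal by alcohol dehydrogenases such as Adh1, Adh4 and Adh7, which also oxidize ethanol, or by short-chain dehydrogenases such as Rdh7. Aldh1a1 oxidizes retinal to retinoic acid, the ligand of the RAR receptors, while Dhrs3 reduces retinal back to retinol.

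Transcripts were counted by RNA-Seq in organoids of mouse intestine and in epithelial cells taken from it (IECs), in which the Mediator kinases CDK8 and CDK19 had been deleted, with 3 libraries in each of 19 groups. VillinCreERT2 is a Cre recombinase that is driven by the epithelial Villin promoter and activated by 4-hydroxytamoxifen (4-OHT), so Cdk8 is removed in the epithelium only, while the Cdk19 deletion is carried by every cell. Strain C57BL/6 was given for the mice. At day 7 after 4-OHT, 5 organoid lines were compared: VillinCreERT2 and C57BL/6 as controls, CDK8iIEC-KO (VillinCreERT2; Cdk8 fl/fl), Cdk8fl/fl/Cdk19-/- (no Cre) and CDK8iIEC-KO/Cdk19-/- (VillinCreERT2; Cdk8 fl/fl; Cdk19 ko/ko). A time course used organoids of the last genotype, numbered apart from the day 7 line in the labels, with 100 nM 4-OHT or 0.001% EtOH for 24 h and collection at days 3, 5, 7 and 10, and these organoids were also grown in Wnt3-conditioned medium (Wnt3-CM) for 10 days. Both arms lack Cdk19, so EtOH and 4-OHT differ in Cdk8 and in the exposure to 4-OHT, which cannot be told apart. A line with a kinase-dead Cdk19 allele (VillinCreERT2; Cdk8 fl/fl; Cdk19 ko/D173A) was compared with EtOH and 4-OHT at day 7. IECs came from VillinCreERT2 and CDK8iIEC-KO/Cdk19-/- mice given tamoxifen (80 mg/kg) on 5 consecutive days and were collected 14 days later. Ages of the mice, and whether a line was 1 clone, are not given in the sources used here. Each genotype of the day 7 lines carries 1 line number, so genotype and other differences between lines cannot be told apart. Columns of VillinCreERT2 and CDK8iIEC-KO organoids are named in another style than those of the other day 7 lines, for a reason not given.

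Totals ran from 15485959 to 32909565 counts per library. The labels number the replicates without saying that they are separate mice or cultures, so that p-values measure the spread between these libraries, which may be technical. Reads on the whole Cdk8 and Cdk19 genes were still present at similar depth in the groups labelled as deleted (Cdk8 averaged 75.6 CPM in VillinCreERT2 and 66.3 CPM in CDK8iIEC-KO/Cdk19-/- organoids, Cdk19 28.1 and 27.7 CPM), and the deleted exons are not given in the sources used here. These counts therefore do not check the labels, and genotypes are given as labelled. The 12 enterocyte markers summed to 11371 to 19607 CPM in the day 7 lines and to 41794 to 49974 CPM in IECs. The 11 immune markers reached at most 0.830 CPM in organoids of the day 7 lines, against 181 to 1541 CPM in IECs. In bulk RNA, fewer cells of a type and less RNA per cell cannot be told apart, and this holds for each value below.

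Adh7, Adh1 and Adh4 lie within one region of chromosome 3 of the GRCm38 build (GENCODE vM21), all on the plus strand. Adh7 (ENSMUSG00000055301) spans chr3:138217760-138233382, Adh1 (ENSMUSG00000074207) chr3:138260991-138290698 and Adh4 (ENSMUSG00000037797) chr3:138415466-138430892. Lrat (ENSMUSG00000028003) lies on the minus strand of the same chromosome, at chr3:82892579-82903973. Aldh1a1 (ENSMUSG00000053279) spans chr19:20492715-20643465, with its paralog Aldh1a7 at chr19:20692953-20727562. Rbp2 (ENSMUSG00000032454) is at chr9:98486115-98509781, Rdh7 (ENSMUSG00000040134) at chr10:127884028-127888817 and Dhrs3 (ENSMUSG00000066026) at chr4:144892827-144928209. Bco1 (ENSMUSG00000031845) at chr8:117095854-117133720 and Isx (ENSMUSG00000031621) at chr8:74873173-74893506 share a chromosome.

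Reads could be mixed with those of a relative or neighbour for a few of these genes. Of the 100-base stretches of the Rdh7 transcripts, 65 of 1604 (4.05%) also occurred in another gene (Hsd17b6, Rdh1, Rdh16f1, Rdh18-ps or Rdh19), against 1 of 4934 for Aldh1a1 (shared with Aldh1a7), 12 of 3687 for Adh7 (shared with the antisense gene 0610031O16Rik) and 0 for the other 7 genes. Antisense or other transcripts on the opposite strand overlap Adh1 (Gm16559), Adh7 (0610031O16Rik), Lrat (Rbm46os) and Aldh1a1 (C730002L08Rik and Gm6684). Gm37113 lies within Rbp2 and Gm20694 within Bco1 on the same strand. Strand use in counting is not given in the sources used here, so reads of these pairs cannot be told apart.

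Promoters are shown for 5 genes on which the results below turn, with the letters of 4 motifs in capitals: AGGTCA (the half-site of nuclear receptors such as RAR and RXR), AAGTCCA (part of the HNF4A motif), TTTATNG (CDX2) and AGATAA, which GATA factors bind. Each sequence is the 250 bases before a RefSeq start in GRCm38.p6, read 5′ to 3′ on the gene's strand, and both strands were searched, so a match on the other strand is printed as its reverse complement, such as TGACCT.
Adh4, chr3:138415247-138415496, plus strand: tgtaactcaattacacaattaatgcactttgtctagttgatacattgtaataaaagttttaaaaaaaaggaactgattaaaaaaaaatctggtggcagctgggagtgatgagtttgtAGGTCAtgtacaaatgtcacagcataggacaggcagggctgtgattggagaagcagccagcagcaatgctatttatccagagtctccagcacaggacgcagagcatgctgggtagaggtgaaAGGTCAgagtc
Aldh1a1, chr19:20601718-20601967, plus strand: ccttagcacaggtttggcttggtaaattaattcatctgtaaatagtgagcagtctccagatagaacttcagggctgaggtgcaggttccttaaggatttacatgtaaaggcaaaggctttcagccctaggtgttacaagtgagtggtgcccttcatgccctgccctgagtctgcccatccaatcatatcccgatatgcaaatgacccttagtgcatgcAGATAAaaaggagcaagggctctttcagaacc
Rbp2, chr9:98490287-98490536, plus strand: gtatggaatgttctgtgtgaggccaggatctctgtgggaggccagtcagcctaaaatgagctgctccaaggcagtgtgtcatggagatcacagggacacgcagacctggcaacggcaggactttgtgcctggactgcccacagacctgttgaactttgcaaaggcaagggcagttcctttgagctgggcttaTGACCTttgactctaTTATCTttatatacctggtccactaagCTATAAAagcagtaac
Rdh7, chr10:127889248-127889497, minus strand: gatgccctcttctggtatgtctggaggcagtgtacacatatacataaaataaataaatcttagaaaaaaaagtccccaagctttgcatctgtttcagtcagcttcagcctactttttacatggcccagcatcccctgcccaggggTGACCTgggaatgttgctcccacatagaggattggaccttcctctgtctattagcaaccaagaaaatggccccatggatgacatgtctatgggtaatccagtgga
Bco1, chr8:117095615-117095864, plus strand: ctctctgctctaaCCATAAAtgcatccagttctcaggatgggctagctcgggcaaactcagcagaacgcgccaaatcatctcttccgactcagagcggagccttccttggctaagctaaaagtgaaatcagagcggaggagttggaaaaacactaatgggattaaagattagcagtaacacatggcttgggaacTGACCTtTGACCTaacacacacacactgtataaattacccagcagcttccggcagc

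AGGTCA occurred in 4 of the 14 promoter entries that RefSeq gives for the 10 genes and in 14.0% of all 32851 promoters. Adh4 held it at 2 places, the nearer ending 6 bases before the start, and Bco1 held 2 copies separated by 1 base. TTTATNG occurred in 3 of 14 entries (Bco1, Dhrs3 and Rbp2) and in 9.81% of all promoters, AGATAA in 3 of 14 (Adh1, Aldh1a1 and Rbp2) and in 9.99%, and AAGTCCA in 1 of 14 (Isx) and in 3.36%. The 3 motifs of Rbp2 all lay within the last 58 bases before its start. These are matches of letters and not binding sites, and the windows printed for Aldh1a1 and Rbp2, like entries of Adh1 and Dhrs3, lie inside the longer GENCODE gene. The end of the Adh4 window, with its nearer AGGTCA, also lies past the GENCODE start of Adh4. Aldh1a1 and Rdh7 each have another RefSeq entry, at chr19:20492333-20492582 and chr10:127888734-127888983. These entries are not printed, and they hold none of the 4 motifs.

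Compared per length, Rbp2 and Adh1 had the highest levels of the 10 genes in VillinCreERT2 IECs and organoids. In IECs of VillinCreERT2 mice, Rbp2, the retinol carrier of the enterocyte, reached 2196 ± 83 RPKM (SD, n = 3). Adh1 followed at 276 ± 19 RPKM, then Aldh1a1 at 65.7 ± 9.1, Rdh7 at 62.2 ± 5.6 and Isx at 57.3 ± 11 RPKM, which did not differ from each other beyond their spread. Adh4 (18.1 ± 3.1 RPKM) and Dhrs3 (17.0 ± 1.1 RPKM) did not differ either, and Bco1, Lrat and Adh7 were lowest at 11.4, 5.28 and 0.363 RPKM. In VillinCreERT2 organoids Adh1 (661 ± 106 RPKM) and Rbp2 (606 ± 106 RPKM) overlapped in spread, followed by Aldh1a1 at 181, Isx at 130, Adh4 at 50.9, Rdh7 at 34.6 and Dhrs3 at 23.4 RPKM. Bco1, Adh7 and Lrat stayed at 2.87, 2.05 and 1.34 RPKM there. In EtOH organoids of day 10 Rbp2 was the highest at 306 RPKM, followed by Aldh1a1 (159), Isx (152) and Adh1 (150 RPKM), and in Wnt3-CM Rbp2 (193 RPKM) and Isx (114 RPKM) stood far above Adh1 (14.4 RPKM). IECs and organoids were normalized in separate tables, so that their levels stand side by side without a test.

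**Figure D1:**
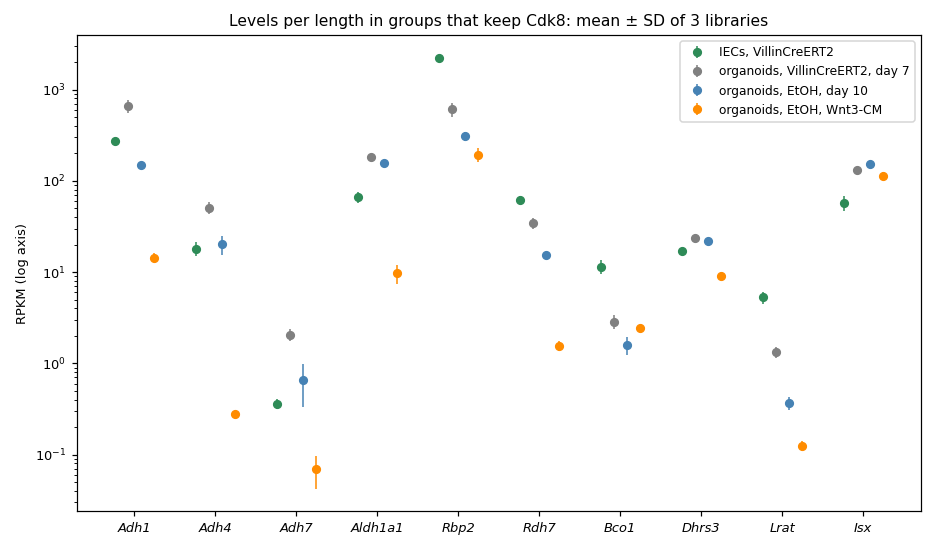
Mean RPKM (log axis) of the 10 genes with the SD of 3 libraries in 4 groups that keep Cdk8: VillinCreERT2 IECs, VillinCreERT2 organoids, and EtOH organoids of day 10 in standard medium and in Wnt3-CM. Rbp2 is the highest in IECs at 2196 RPKM, and Adh4, Adh7 and Lrat in Wnt3-CM lie at 0.278, 0.0694 and 0.124 RPKM.

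The day 7 lines addressed what loss of either kinase or of both does to these genes. With both kinases deleted, the retinol-handling genes Rbp2, Rdh7, Lrat and Dhrs3 were higher than in VillinCreERT2 organoids, and Aldh1a1 was lower. Changes with a single kinase deleted were fewer. Rbp2 counted 519, 529 and 701 CPM in VillinCreERT2 and 1208, 1214 and 1238 CPM in CDK8iIEC-KO/Cdk19-/- organoids, without overlap. Its log2 fold change was 1.06 (SE 0.11, adjusted p = 8.31e-07, edgeR's quasi-likelihood test with Benjamini-Hochberg adjustment, as for each adjusted p below). The 3 CDK8iIEC-KO libraries had 533 to 631 CPM, the C57BL/6 libraries 428 to 544 CPM and the Cdk8fl/fl/Cdk19-/- libraries 597 to 679 CPM, so all 12 libraries of the other lines lay below those of the double deletion.

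Rdh7, a retinol dehydrogenase, behaved alike. It counted 53.4, 53.4 and 67.3 CPM in VillinCreERT2 and 129, 134 and 142 CPM with both kinases deleted, which gave a log2 fold change of 1.22 (SE 0.08, adjusted p = 7.86e-11). The other lines ran from 49.0 to 79.8 CPM, below each library of the double deletion. Lrat, which esterifies retinol, counted 6.14, 7.30 and 8.12 CPM against 11.7, 13.5 and 14.8 CPM, a log2 fold change of 0.89 (SE 0.12, adjusted p = 5.59e-07), and its highest library in the other lines stood at 9.22 CPM. Against Cdk8fl/fl/Cdk19-/- organoids, which lack Cdk19 alone, these genes were higher as well, with log2 fold changes of 0.95 for Rbp2 (SE 0.11, adjusted p = 5.72e-06), 0.86 for Rdh7 (SE 0.08, adjusted p = 3.16e-08) and 0.82 for Lrat (SE 0.12, adjusted p = 4.65e-06).

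Dhrs3, which returns retinal to retinol, depended on the control. It counted 64.9, 68.4 and 72.4 CPM in VillinCreERT2 and 101, 107 and 110 CPM in CDK8iIEC-KO/Cdk19-/- organoids (log2 fold change 0.63, SE 0.07, adjusted p = 1.99e-08). The C57BL/6 control had 94.1, 103 and 113 CPM and Cdk8fl/fl/Cdk19-/- 93.5, 95.7 and 96.9 CPM, so the double deletion overlapped with C57BL/6, and its difference of 0.15 (SE 0.07, adjusted p = 0.0781) from Cdk8fl/fl/Cdk19-/- did not pass. Against the averaged control lines its log2 fold change was 0.33 and was not called.

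Aldh1a1, the retinal dehydrogenase, was lowest in the double deletion. Its libraries had 823, 914 and 939 CPM in VillinCreERT2, 573, 596 and 597 CPM in C57BL/6, 727, 731 and 751 CPM in CDK8iIEC-KO, 643, 650 and 720 CPM in Cdk8fl/fl/Cdk19-/- and 494, 521 and 524 CPM in CDK8iIEC-KO/Cdk19-/- organoids. No other line reached down to the double deletion. The log2 fold change against VillinCreERT2 was -0.80 (SE 0.06, adjusted p = 1.46e-11), that against Cdk8fl/fl/Cdk19-/- was -0.39 (SE 0.06, adjusted p = 6.02e-06), under the fold of 1.5, and that against the averaged control lines was -0.50, also under it.

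The alcohol dehydrogenases changed less. Adh1 counted 1306, 1377 and 1746 CPM in VillinCreERT2 and 2047, 2060 and 2220 CPM in CDK8iIEC-KO/Cdk19-/- organoids, and no library of the other lines exceeded 1746 CPM. Its log2 fold change of 0.51 (SE 0.10, adjusted p = 0.000187) stayed under the fold of 1.5, and without VillinCreERT2 replicate 3 (0.65) or against the averaged control lines (0.60) it was called. Adh7 went from 6.93, 7.24 and 9.10 to 9.48, 10.8 and 11.6 CPM (log2 fold change 0.45, SE 0.13, adjusted p = 0.00362). Adh4 went from 65.2, 70.1 and 86.2 to 54.0, 57.7 and 59.3 CPM (log2 fold change -0.37, SE 0.11, adjusted p = 0.00783). Neither reached the fold of 1.5. Isx counted 214, 225 and 229 CPM in the double deletion and 228, 228 and 244 CPM in VillinCreERT2 (log2 fold change -0.07, 95% interval -0.17 to 0.04, adjusted p = 0.303).

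Bco1, which cleaves beta-carotene, followed another order. VillinCreERT2 organoids had 6.52, 6.60 and 8.80 CPM, CDK8iIEC-KO 1.22, 1.35 and 1.65 CPM, C57BL/6 1.53, 1.63 and 1.65 CPM, Cdk8fl/fl/Cdk19-/- 1.63, 2.74 and 2.84 CPM and CDK8iIEC-KO/Cdk19-/- 4.06, 5.04 and 6.24 CPM. CDK8iIEC-KO organoids were thus lower than VillinCreERT2 (log2 fold change -2.37, SE 0.20, adjusted p = 1.53e-09), but so was the C57BL/6 control (-2.18, SE 0.20, adjusted p = 1.20e-09). The double deletion was higher than Cdk8fl/fl/Cdk19-/- (1.09, SE 0.20, adjusted p = 0.000111), and against VillinCreERT2 it differed by -0.51 (SE 0.17, adjusted p = 0.0116), called only without VillinCreERT2 replicate 2 (-0.59) or CDK8iIEC-KO/Cdk19-/- replicate 1 (-0.68). The 3 markers of distal small intestine summed to 147 to 418 CPM in VillinCreERT2, 17.3 to 25.7 CPM in CDK8iIEC-KO, 3.11 to 3.14 CPM in C57BL/6, 72.4 to 95.8 CPM in Cdk8fl/fl/Cdk19-/- and 29.1 to 69.1 CPM in CDK8iIEC-KO/Cdk19-/- organoids. The 5 markers of proximal small intestine summed, in the same order of lines, to 455 to 650, 447 to 489, 265 to 271, 296 to 323 and 516 to 579 CPM. The distal sums were instead lower in the double deletion than in Cdk8fl/fl/Cdk19-/-. The part of these markers in the result was not tested.

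Other cell types differed between these lines as well. The 5 Paneth cell markers summed to 2719 to 2837 CPM in VillinCreERT2 and to 787 to 818 CPM in CDK8iIEC-KO/Cdk19-/- organoids, and the 4 stem cell markers to 1084 to 1302 CPM and 389 to 543 CPM, without overlap. Against Cdk8fl/fl/Cdk19-/- organoids (3747 to 4066 CPM and 708 to 838 CPM) both were lower in the double deletion too. Enterocyte markers overlapped with VillinCreERT2 (16299 to 19607 CPM and 18064 to 19371 CPM). Against Cdk8fl/fl/Cdk19-/- organoids, 5 of the 12 were called higher in the double deletion and 1 lower. Of the 5 proximal markers 3 were called higher there and 0 lower, where 10.6% of all genes were called. In CDK8iIEC-KO organoids the enterocyte markers were lower, at 11371 to 13099 CPM, with 6 of 12 called lower and 0 higher against VillinCreERT2. The part of these cells in the results was not tested.

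In counts, 5 of the 10 genes were called in CDK8iIEC-KO/Cdk19-/- against VillinCreERT2 organoids, 4 higher and 1 lower, where 19.4% of all genes tested were called, 11.5% higher and 7.95% lower. Their median log2 difference was 0.48, against -0.00 for all genes. Against Cdk8fl/fl/Cdk19-/- organoids 4 of 10 were called, all higher, where 10.6% of all genes were called and 6.33% were higher. The others differed from it by 0.48 (Adh1), -0.33 (Adh4), 0.31 (Adh7) and -0.10 (Isx), beside Aldh1a1 and Dhrs3 given above. Tested against the sum of the single deletions on the log2 scale, the double deletion differed for 7 of 10 genes, where 19.6% of all genes did. In CDK8iIEC-KO alone only Bco1 was called (1 of 10, against 7.23% of all genes), and the adjusted p but not the fold passed for Adh4 (-0.48), Adh7 (-0.37) and Aldh1a1 (-0.28). In Cdk8fl/fl/Cdk19-/- against C57BL/6 only Adh4 was called (1 of 10, against 5.25%), from 38.9, 39.1 and 39.2 CPM to 61.5, 67.2 and 86.1 CPM (log2 fold change 0.87, SE 0.11, adjusted p = 3.14e-05), and without Cdk8fl/fl/Cdk19-/- replicate 2 Bco1 was called too (0.80). Both shares are near those of all genes. The other genes had log2 differences of -0.16 to 0.27 in CDK8iIEC-KO (Adh1 -0.16, Rbp2 -0.01, Rdh7 -0.14, Dhrs3 0.04, Lrat 0.27 and Isx 0.12). In Cdk8fl/fl/Cdk19-/- they were 0.21 for Adh1, 0.19 for Adh7 and Aldh1a1, 0.36 for Rbp2, 0.13 for Rdh7, 0.58 for Bco1, -0.12 for Dhrs3, 0.16 for Lrat and -0.09 for Isx, none of them called.

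The control lines differed as well. Between C57BL/6 and VillinCreERT2 organoids, 4 of 10 genes were called (Adh4, Aldh1a1 and Bco1 lower, Dhrs3 higher), where 26.4% of all genes were. Adh1 (-0.17), Adh7 (-0.05), Rbp2 (-0.24), Rdh7 (0.23), Lrat (-0.09) and Isx (0.12) were not called. Enterocyte markers were lower in C57BL/6 than in VillinCreERT2 organoids (14517 to 15381 and 16299 to 19607 CPM). Paneth cell markers (4697 to 5813 and 2719 to 2837 CPM) and proliferation markers (1050 to 1135 and 811 to 862 CPM) were higher. The part of these markers was not tested. Adh4 differed by -0.92 (SE 0.11, adjusted p = 1.79e-06), larger in size than its value in each comparison of a deletion among the day 7 lines. Aldh1a1 (-0.60, SE 0.06, adjusted p = 1.53e-09) and Dhrs3 (0.60, SE 0.07, adjusted p = 3.30e-08) lay close to the fold of 1.5, and Aldh1a1 was no longer called without C57BL/6 replicate 1 (-0.58), VillinCreERT2 replicate 2 (-0.58) or VillinCreERT2 replicate 3 (-0.56), or with upper quartile factors (-0.51). Dhrs3 was no longer called without C57BL/6 replicate 3 (0.53) or VillinCreERT2 replicate 1 (0.56), with no filter on low counts (0.58) or with DESeq2 (0.58).

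**Figure D2:**
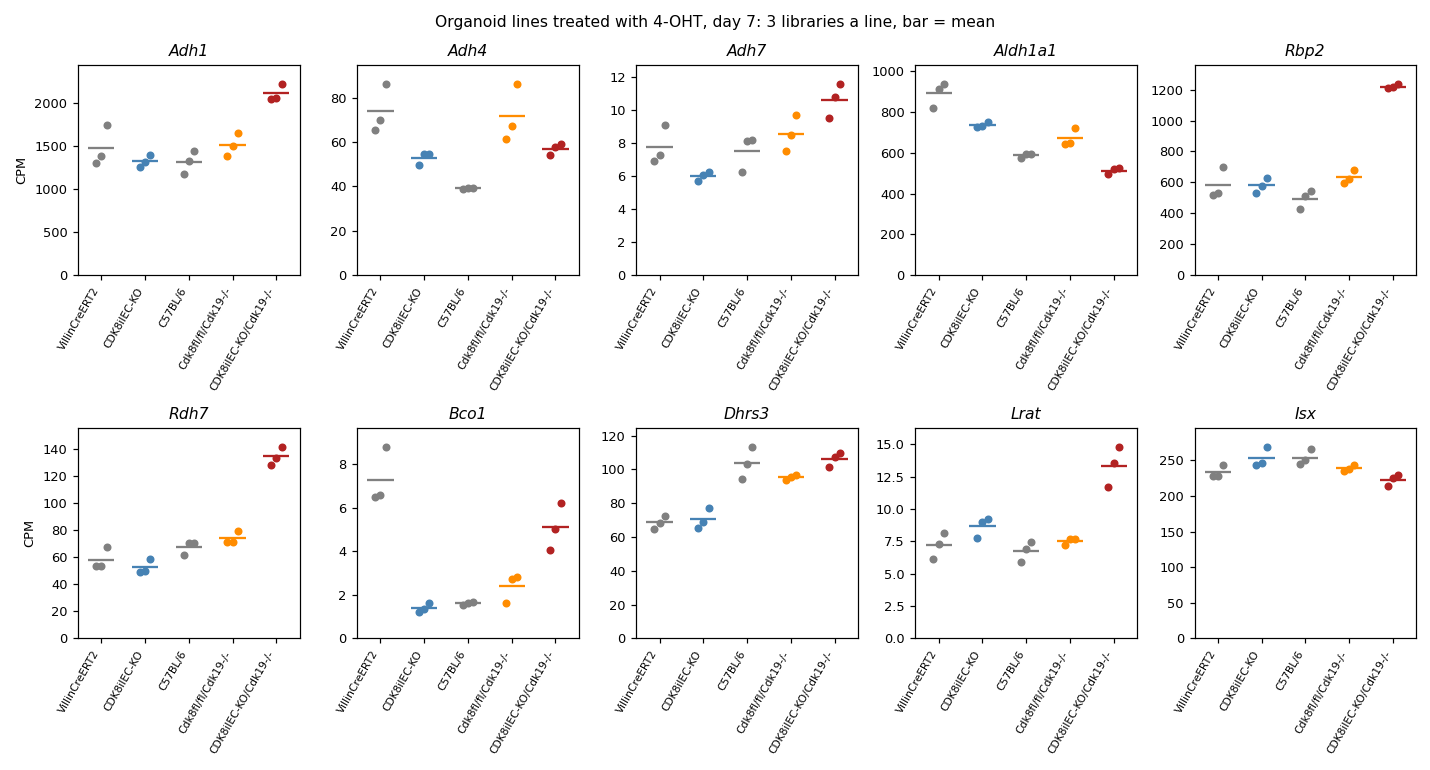
CPM of each of the 10 genes in the 5 organoid lines at day 7 after 4-OHT, 3 libraries a line, with the mean as a bar and the axis starting at 0. The double deletion stands above all other lines for Rbp2, Rdh7 and Lrat and below them for Aldh1a1, while Bco1 is high in VillinCreERT2 and in the double deletion.

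The time course followed organoids without Cdk19, with EtOH or 4-OHT, from day 3 to day 10. At day 3, the contrast that chose Adh4 and Aldh1a1, most of the genes were lower with 4-OHT, and these values carry no test. Adh4 counted 22.9, 28.6 and 28.7 CPM with EtOH and 0.439, 0.525 and 0.956 CPM with 4-OHT, the latter being 9, 11 and 20 reads, a 41.3-fold difference. Aldh1a1 counted 339, 410 and 410 CPM against 85.2, 85.8 and 89.9 CPM (4.44-fold).

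The other genes at day 3 are described in the same way, with no test. Adh1 had 392 to 504 CPM with EtOH and 107 to 137 CPM with 4-OHT (3.78-fold lower), Rdh7 31.3 to 35.2 and 5.32 to 8.59 CPM (4.50-fold), and Rbp2 212 to 245 and 85.3 to 105 CPM (2.43-fold). Dhrs3 had 131 to 145 and 57.3 to 68.9 CPM (2.24-fold), Isx 421 to 447 and 269 to 289 CPM (1.55-fold), and Adh7 at most 1.44 CPM with EtOH and 0.477 CPM with 4-OHT. Bco1 and Lrat overlapped between the groups, with log2 differences of 0.20 and -0.16. The 12 enterocyte markers summed to 7267 to 7934 CPM with EtOH and 3201 to 3763 CPM with 4-OHT on that day. Stem cell markers (1694 to 1710 and 2017 to 2053 CPM) and proliferation markers (680 to 744 and 819 to 879 CPM) were higher with 4-OHT and proximal markers lower (244 to 270 and 214 to 223 CPM), without overlap, and the part of these markers in the values was not tested.

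After day 3 the genes parted. Adh4 and Aldh1a1 remained low for longer, whereas Rbp2, Rdh7 and later Lrat became higher with 4-OHT than with EtOH. For Adh4, EtOH libraries had 23.0, 37.0 and 59.2 CPM at day 5, 30.2, 38.6 and 48.0 CPM at day 7 and 24.1, 26.6 and 37.1 CPM at day 10. With 4-OHT they had 5.86, 6.78 and 8.12 CPM, 6.47, 7.67 and 9.81 CPM, and 12.8, 16.0 and 17.6 CPM on those days. The groups did not overlap on any of them. The log2 fold change was -2.52 at day 5 (SE 0.31, adjusted p = 6.85e-06), -2.29 at day 7 (SE 0.30, adjusted p = 7.14e-06) and -0.92 at day 10 (SE 0.28, adjusted p = 0.0128). The call at day 10 was lost without EtOH replicate 1 (-0.72, adjusted p = 0.0702) or without 4-OHT replicate 3 (-0.80, adjusted p = 0.0563).

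Aldh1a1 returned to the EtOH level by day 10. EtOH libraries had 661, 749 and 860 CPM at day 5, 797, 836 and 882 CPM at day 7 and 765, 778 and 806 CPM at day 10. With 4-OHT it counted 376, 395 and 423 CPM, then 442, 493 and 544 CPM, then 789, 827 and 933 CPM, so that only the groups of day 10 overlapped. The log2 fold change was -0.93 at day 5 (SE 0.09, adjusted p = 3.97e-09), -0.77 at day 7 (SE 0.09, adjusted p = 3.80e-08) and 0.12 at day 10 (95% interval -0.05 to 0.29, adjusted p = 0.282).

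Rbp2 and Rdh7 crossed from low to high. Rbp2 had 355 to 574 CPM with EtOH and 528 to 604 CPM with 4-OHT at day 5, which overlapped (log2 fold change 0.35, adjusted p = 0.0603). It had 431, 485 and 597 CPM against 784, 828 and 908 CPM at day 7 (0.74, SE 0.14, adjusted p = 0.000284) and 267, 289 and 329 CPM against 666, 685 and 738 CPM at day 10 (1.24, SE 0.14, adjusted p = 8.99e-07). Rdh7 overlapped at day 5 (-0.26, adjusted p = 0.125), then counted 21.3, 21.7 and 26.5 CPM against 56.6, 57.5 and 61.5 CPM at day 7 (1.34, SE 0.13, adjusted p = 1.65e-08) and 23.1, 26.6 and 27.0 CPM against 59.0, 63.1 and 65.5 CPM at day 10 (1.29, SE 0.13, adjusted p = 2.23e-08). From day 7 on, neither gene had a 4-OHT library within the range of EtOH.

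The remaining genes gave fewer calls. Lrat did not pass at days 5 (0.38) and 7 (0.53) but passed at day 10, with 1.77, 1.79 and 2.33 CPM against 3.73, 3.90 and 4.23 CPM (1.01, SE 0.23, adjusted p = 0.000575). Adh1 passed at day 5, with 582, 688 and 832 CPM against 345, 360 and 393 CPM (-0.94, SE 0.12, adjusted p = 2.48e-06), and overlapped at day 7. At day 10 Adh1 had 320 to 343 CPM with EtOH and 219 to 242 CPM with 4-OHT, values that enter the contrast of media and are given with no test. Adh7, with at most 4.21 CPM, passed at day 7 alone (-1.24, SE 0.34, adjusted p = 0.00358), and at day 10 it was called higher only without EtOH replicate 1 (0.91, adjusted p = 0.0269). Dhrs3 was higher at days 7 (0.46, adjusted p = 0.00152) and 10 (0.51, adjusted p = 0.000763) by less than 1.5-fold. Isx did not pass on any of these days (log2 fold changes -0.13, 0.07 and -0.05), and neither did Bco1, which ran from 2.27 to 6.20 CPM over the time course.

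Markers of cell types moved with 4-OHT on these days. Enterocyte markers overlapped at day 5 (9087 to 13140 CPM with EtOH and 9626 to 9990 CPM with 4-OHT) and were higher with 4-OHT at day 7 (9808 to 12200 and 12968 to 15224 CPM) and at day 10 (7962 to 9573 and 9920 to 11850 CPM). Paneth cell markers were lower with 4-OHT on each day, at 4683 to 5887 and 2451 to 2774 CPM, 4743 to 5775 and 1765 to 1965 CPM, and 7977 to 8154 and 2081 to 2469 CPM. Stem cell markers were lower as well, at 1462 to 2087 and 918 to 1041 CPM, 1756 to 2123 and 621 to 959 CPM, and 2953 to 3189 and 1529 to 1744 CPM. The 6 proliferation markers were also lower on each day, at 736 to 880 and 445 to 565 CPM, 772 to 923 and 396 to 584 CPM, and 1003 to 1072 and 627 to 659 CPM. Distal markers were higher with 4-OHT at day 5 (24.8 to 33.5 and 39.1 to 48.9 CPM) and day 7 (20.9 to 25.1 and 46.5 to 65.7 CPM). Proximal markers overlapped at day 5. They were higher with 4-OHT at day 7 (263 to 306 and 324 to 344 CPM) and day 10 (174 to 182 and 205 to 242 CPM). EtOH replicate 2 of day 7 stood apart in mesenchyme markers (41.4 CPM, against 4.14 and 4.47 CPM), and no call of a member at day 7 changed without it. Their part in the values of Rbp2, Rdh7, Lrat and the other genes was not tested.

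By day, 3 of 10 genes were called at day 5, all lower (Adh1, Adh4 and Aldh1a1), where 13.2% of all genes were called in either direction and 4.62% lower. At day 7, 5 of 10 were called, 3 lower and 2 higher, against 18.3% of all genes, 9.25% lower and 9.00% higher, and at day 10, 4 of the 9 genes other than Adh1, 1 lower and 3 higher, against 15.8%, 6.92% lower and 8.86% higher. The change of the response between day 5 and day 10 was tested as an interaction, and it was called for 4 of the same 9 genes, against 8.48% of all genes. It was 1.60 for Adh4 (SE 0.42, adjusted p = 0.0111), 1.05 for Aldh1a1 (SE 0.12, adjusted p = 9.32e-07), 0.89 for Rbp2 (SE 0.20, adjusted p = 0.00364) and 1.55 for Rdh7 (SE 0.18, adjusted p = 3.24e-06). It was not called for Adh7 (0.89), Bco1 (-0.13), Dhrs3 (0.40), Lrat (0.63) and Isx (0.09).

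Several genes differed between days in EtOH organoids. From day 5 to day 10, Rbp2 (-0.59, SE 0.14, adjusted p = 0.0016), Dhrs3 (-0.92, SE 0.11, adjusted p = 3.23e-07) and Isx (-0.89, SE 0.06, adjusted p = 1.30e-12) fell, 3 of the 9 genes other than Adh1, where 14.9% of all genes were called lower. Isx had 479, 511 and 520 CPM at day 5 and 257, 272 and 288 CPM at day 10, without overlap. Rbp2 was at the fold of 1.5 and was no longer called without EtOH replicate 2 of day 5 (-0.37) or replicate 2 (-0.57) or 3 (-0.52) of day 10, with no filter on low counts (-0.58) or with limma-voom (-0.56). Adh1 went from 582 to 832 CPM down to 320 to 343 CPM, and Adh4, which did not pass (-0.44), was called lower without EtOH replicate 3 of day 5 (-0.73, adjusted p = 0.0119). The remaining genes, Adh7 (0.14), Aldh1a1 (0.05), Rdh7 (-0.41), Bco1 (-0.01) and Lrat (-0.38), were not called. Stem and Paneth cell markers were higher at day 10 than at day 5 in these organoids, with the ranges above, as were proliferation markers (736 to 880 and 1003 to 1072 CPM). Proximal markers (266 to 302 and 174 to 182 CPM) and distal markers (24.8 to 33.5 and 13.7 to 15.7 CPM) were lower at day 10, and the part of all these in the differences was not tested.

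**Figure D3:**
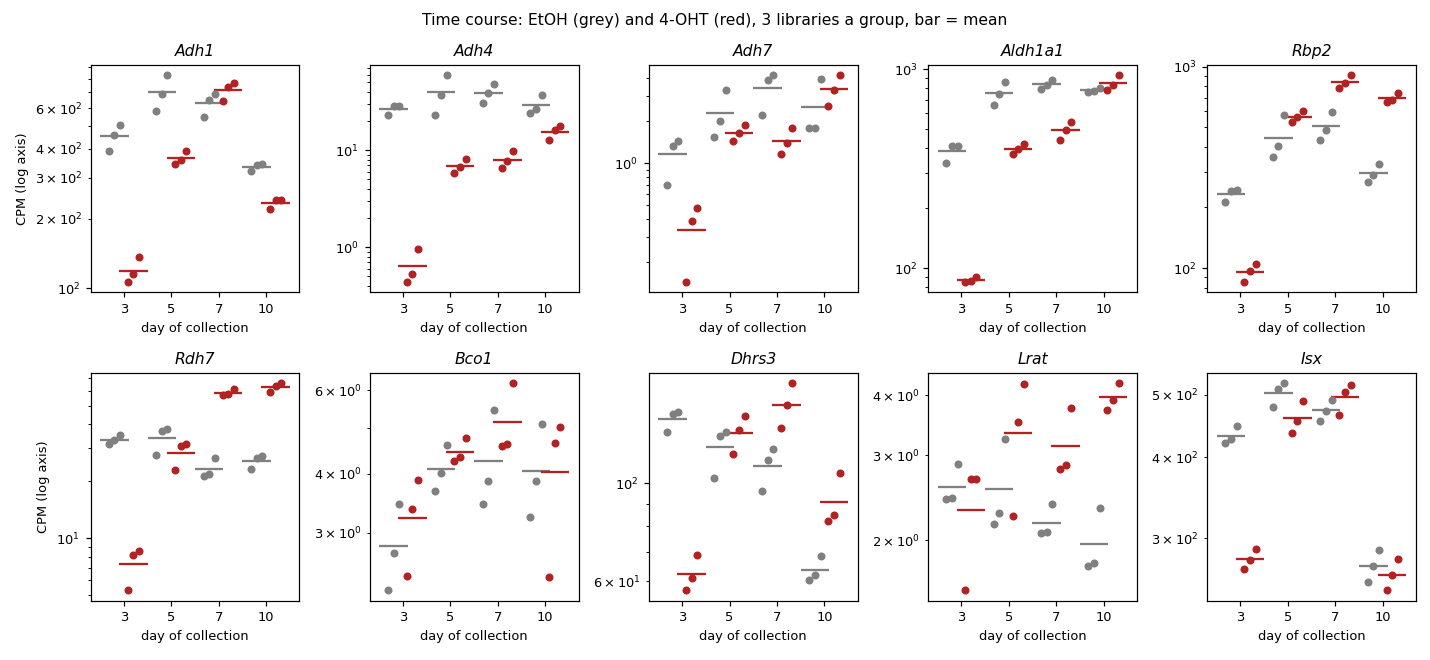
CPM (log axis) of each of the 10 genes at days 3, 5, 7 and 10 in VillinCreERT2/Cdk8fl/fl/Cdk19-/- organoids with EtOH (grey) or 4-OHT (red), 3 libraries a group, with the mean as a bar. Adh4 with 4-OHT climbs from at most 0.956 CPM at day 3 to at most 17.6 CPM at day 10, and Rbp2 and Rdh7 change from lower to higher than EtOH.

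In Wnt3-CM, a medium conditioned with the Wnt3 ligand, the EtOH organoids of the time course line had low levels of most of these genes, and 4-OHT organoids had higher ones. The contrast of media chose Adh1, and media and count tables cannot be told apart, so the levels of EtOH organoids at day 10 stand side by side without a test. Adh4 had 24.1 to 37.1 CPM in standard medium and 0.369 to 0.421 CPM in Wnt3-CM (7 or 8 reads, 72.7-fold lower). Aldh1a1 was 16.4-fold lower in Wnt3-CM, Adh1 10.4-fold, Rdh7 9.87-fold and Adh7 9.47-fold. Lrat (2.95-fold), Dhrs3 (2.40-fold), Rbp2 (1.58-fold) and Isx (1.33-fold) were lower by less, and Bco1 was 1.53-fold higher. The enterocyte markers summed to 7962 to 9573 CPM in standard medium and to 7985 to 9553 CPM in Wnt3-CM, which overlap, and the distal markers to 13.7 to 15.7 CPM and 111 to 139 CPM. Stem cell markers summed to 2953 to 3189 CPM in standard medium and 990 to 1142 CPM in Wnt3-CM, and proliferation markers to 1003 to 1072 and 625 to 641 CPM, without overlap.

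Adh4 and Adh7 passed the filter on low counts in the Wnt3-CM table only through their 4-OHT libraries, which fixed their direction, so they are given there with no test, as is Adh1. Of the 7 other genes, 5 were called higher with 4-OHT in Wnt3-CM, where 9.45% of all genes were. Rdh7 counted 2.31, 2.52 and 2.95 CPM with EtOH and 14.4, 17.0 and 21.3 CPM with 4-OHT (log2 fold change 2.76, SE 0.16, adjusted p = 3.15e-11). Aldh1a1 counted 38.7, 44.4 and 60.2 CPM against 194, 200 and 215 CPM (2.09, SE 0.15, adjusted p = 1.58e-05), and Rbp2 155, 184 and 219 CPM against 661, 705 and 755 CPM (1.93, SE 0.11, adjusted p = 1.17e-08). All 3 genes separated the groups by more than their whole range within a group.

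Low counts lay behind the next genes. Adh4 counted 0.369, 0.420 and 0.421 CPM against 1.35, 1.70 and 2.93 CPM with 4-OHT, the latter being 28 to 59 reads. Adh7 counted 0.157, 0.263 and 0.368 CPM, or 3 to 7 reads, against 1.21, 1.56 and 1.84 CPM. Lrat counted 0.578, 0.682 and 0.737 CPM against 1.69, 1.85 and 2.48 CPM (1.58, SE 0.28, adjusted p = 9.79e-05). Adh4 with 4-OHT still lay below each EtOH library of day 10 in standard medium, while Adh7 overlapped with them.

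Dhrs3 rose from 25.0, 25.9 and 28.7 CPM to 46.1, 50.2 and 53.6 CPM (0.91, SE 0.08, adjusted p = 7.37e-09). Bco1 (0.02, 95% interval -0.26 to 0.30) and Isx (-0.08, 95% interval -0.22 to 0.07) were not called. Adh1, given without a test, had 29.0, 31.3 and 36.2 CPM with EtOH and 113, 114 and 131 CPM with 4-OHT. With 4-OHT the enterocyte markers summed to 9071 to 9955 CPM, with 8 of the 12 called higher and 0 lower, the distal markers to 19.2 to 24.0 CPM and the 5 Paneth cell markers to 1845 to 2261 CPM, the latter against 6722 to 7434 CPM with EtOH, and their part in these results was not tested.

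**Figure D4:**
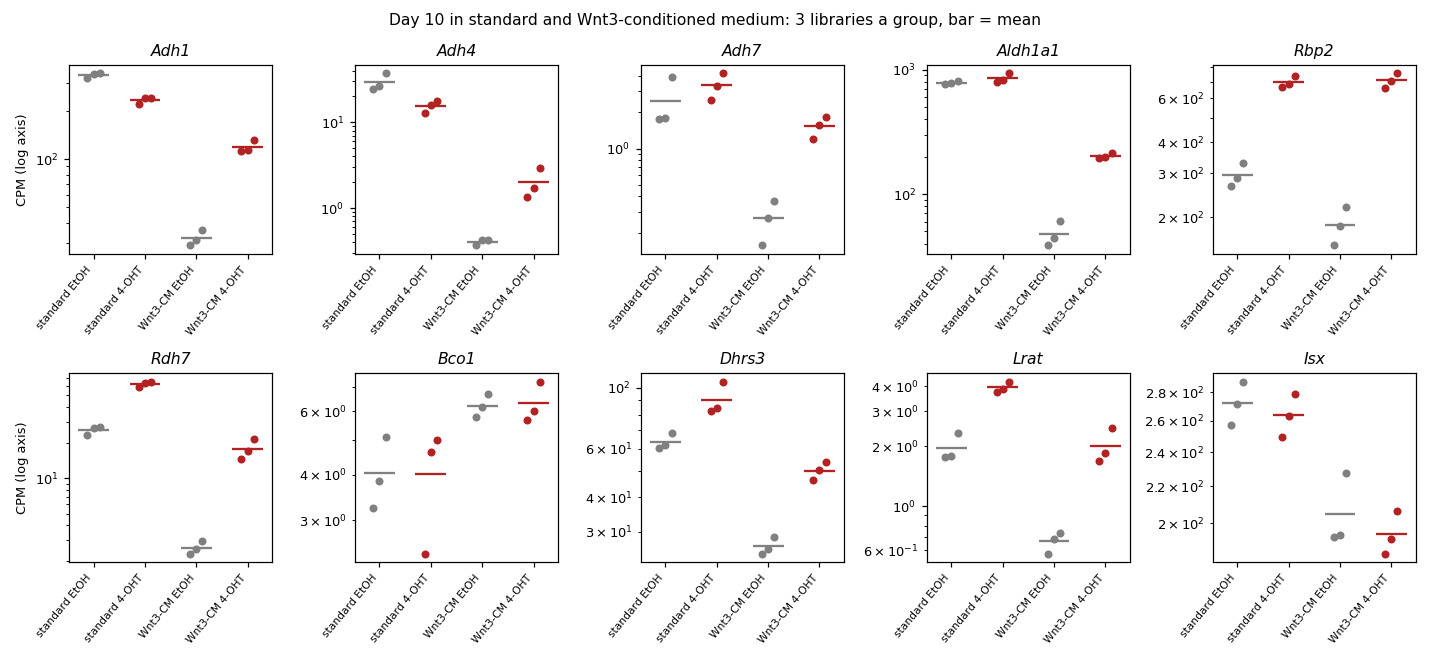
CPM (log axis) of each of the 10 genes at day 10 in standard medium and in Wnt3-CM, each with EtOH (grey) and 4-OHT (red), 3 libraries a group, with the mean as a bar. In Wnt3-CM the EtOH libraries of Adh1 lie at 29.0 to 36.2 CPM and those of 4-OHT at 113 to 131 CPM, whereas in standard medium the EtOH libraries lie higher, at 320 to 343 CPM.

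In the line with a kinase-dead Cdk19 allele, 4-OHT organoids again had more Rbp2, Rdh7 and Lrat, while Adh4 and Aldh1a1 hardly differed. The columns of these libraries name no genotype and were assigned to this line by elimination. Rbp2 counted 535, 541 and 566 CPM with EtOH and 1070, 1426 and 1499 CPM with 4-OHT (1.28, SE 0.12, adjusted p = 7.70e-05). Lrat counted 4.33, 4.60 and 6.67 CPM against 8.02, 8.60 and 9.68 CPM (0.75, SE 0.17, adjusted p = 0.00937), and the call was lost without EtOH replicate 3 (adjusted p = 0.0566). Rdh7 counted 67.2, 96.1 and 97.7 CPM against 123, 189 and 213 CPM (1.01, SE 0.26, adjusted p = 0.0387). The groups did not overlap in these genes, but the call of Rdh7 was lost without any 1 of EtOH replicates 1, 2 or 3 or 4-OHT replicates 2 or 3 (adjusted p = 0.0657 to 0.108), and with no filter on low counts (adjusted p = 0.121).

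Adh1 had 1319, 1367 and 1391 CPM with EtOH and 1603, 2015 and 2168 CPM with 4-OHT in this line (0.51, SE 0.10, adjusted p = 0.00467), under the fold of 1.5, and without 4-OHT replicate 1 it was called at 0.62. Dhrs3 differed by 0.25 (SE 0.07, adjusted p = 0.0272), also under that fold. Aldh1a1 had 1108 to 1375 CPM with EtOH and 1135 to 1392 CPM with 4-OHT (0.04, 95% interval -0.16 to 0.24), and Adh4 61.6 to 63.4 CPM and 50.6 to 64.4 CPM (-0.09, 95% interval -0.26 to 0.08). Adh7 (0.35), Bco1 (0.31) and Isx (-0.04) did not pass. Thus 3 of 10 genes were called, all higher, where 12.3% of all genes were called and 6.05% were higher, and without EtOH replicate 3 only 1 was called. The enterocyte markers summed to 18348 to 19891 CPM with EtOH and 24670 to 28050 CPM with 4-OHT. The Paneth cell markers summed to 3192 to 3441 and 1649 to 1945 CPM and the stem cell markers to 740 to 839 and 402 to 452 CPM. Proximal markers were higher with 4-OHT (317 to 368 and 454 to 516 CPM). Distal markers (18.4 to 23.3 and 8.54 to 11.1 CPM) and proliferation markers (608 to 681 and 444 to 537 CPM) were lower. The part of all these markers was not tested. The difference between this line and the other lines was not tested, since they were fitted separately.

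In IECs of mice, the spread between libraries was wider, and 1 of 10 genes was called, higher, where 0.646% of all genes were called higher. Dhrs3 counted 46.6, 49.1 and 53.2 CPM in VillinCreERT2 and 68.7, 83.2 and 87.3 CPM in CDK8iIEC-KO/Cdk19-/- IECs (0.68, SE 0.12, adjusted p = 0.0453). The groups did not overlap, yet the call was lost with the replicate number as a block (adjusted p = 0.145) and without CDK8iIEC-KO/Cdk19-/- replicate 1 or 3 or VillinCreERT2 replicate 1 or 3 (adjusted p = 0.101 to 0.247).

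Aldh1a1 had 295, 302 and 376 CPM in VillinCreERT2 and 156, 200 and 228 CPM in CDK8iIEC-KO/Cdk19-/- IECs, without overlap (-0.73, SE 0.17, adjusted p = 0.0931). It was called without VillinCreERT2 replicate 2 (-0.78), with no filter on low counts (-0.77) and with DESeq2 (-0.73, adjusted p = 0.00159). Rdh7 had 95.1, 104 and 114 CPM against 104, 167 and 198 CPM (0.58, SE 0.23, adjusted p = 0.226) and was called without CDK8iIEC-KO/Cdk19-/- replicate 2 (0.80, adjusted p = 0.0347). Bco1 had 24.2, 28.9 and 34.2 CPM against 3.29, 7.66 and 26.4 CPM (-1.22, SE 0.74, adjusted p = 0.408), with 1 library of the double deletion near the controls.

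Isx counted 80.8, 108 and 120 CPM against 141, 148 and 156 CPM, which did not overlap but did not pass (0.53, SE 0.15, adjusted p = 0.134). Adh4 had 21.3 to 30.2 CPM against 10.5 to 21.3 CPM (-0.71, SE 0.26, adjusted p = 0.21). Rbp2 (0.23, 95% interval -0.12 to 0.58), Lrat (0.46, 95% interval 0.04 to 0.88), Adh1 (-0.18, 95% interval -0.57 to 0.21) and Adh7 (0.12, 95% interval -0.55 to 0.79) did not pass, with adjusted p between 0.289 and 0.866. The immune markers summed to 181 to 559 CPM in VillinCreERT2 and 878 to 1541 CPM in CDK8iIEC-KO/Cdk19-/- IECs, the 10 mesenchyme markers to 7.30 to 806 CPM and 407 to 832 CPM, and the Paneth cell markers to 3617 to 5914 CPM and 899 to 1979 CPM. VillinCreERT2 replicate 2 stood apart from the other VillinCreERT2 libraries in mesenchyme markers (806 CPM, against 7.30 and 42.9 CPM). It did so in immune markers too (559 CPM, against 181 and 208 CPM). Aldh1a1 was called without this library, as given above. The stem cell markers summed to 680 to 956 CPM in VillinCreERT2 and 277 to 437 CPM in CDK8iIEC-KO/Cdk19-/- IECs, without overlap. The enterocyte markers overlapped at 44736 to 47599 CPM and 41794 to 49974 CPM, and the part of other cells in these values was not tested.

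Over the 7 comparisons in which both kinases were affected and the genes were tested (the day 7 lines against VillinCreERT2, days 5, 7 and 10, Wnt3-CM, the D173A line and IECs), Rbp2 and Rdh7 were called higher in 5, Lrat in 4 and Dhrs3 in 3, and none of the 4 was called lower. Adh4 and Aldh1a1 were each called lower in 3, and Aldh1a1 was called higher in Wnt3-CM. Adh7 was called lower at day 7 and Adh1 at day 5, and Bco1 and Isx were called in none. Adh1, Adh4 and Adh7 carry no test in Wnt3-CM, nor Adh1 at day 10. The day 7 comparison with Cdk8fl/fl/Cdk19-/- organoids, in which Bco1 was called higher, is not among the 7. Several of these comparisons use organoids of the same line, so they are not independent.

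**Figure D5:**
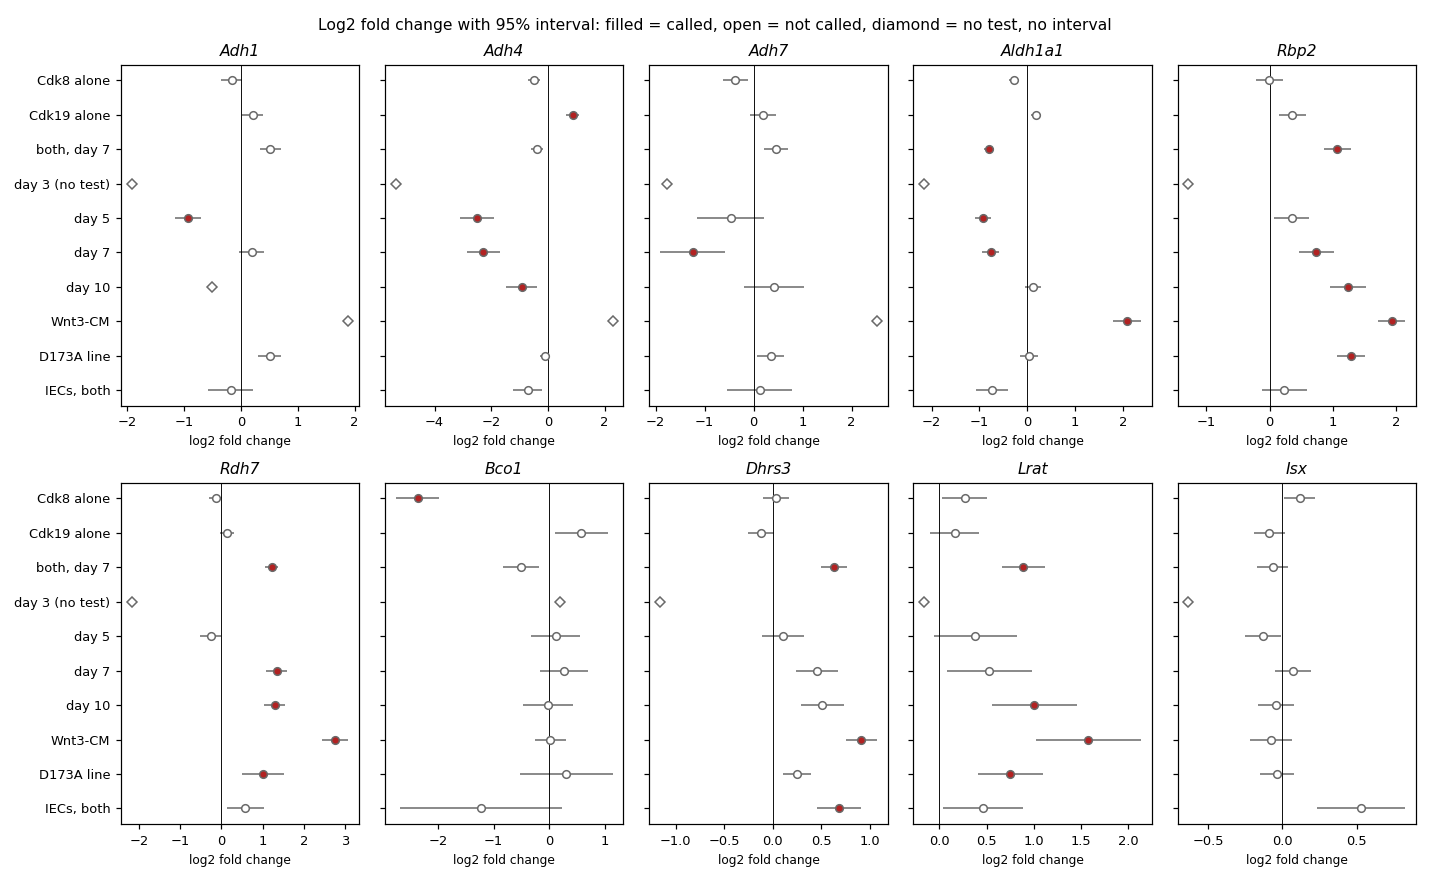
Log2 fold change (x axis) with its 95% interval for each of the 10 genes in 10 comparisons (rows: each kinase alone, both at day 7, the time course by day, Wnt3-CM, the D173A line and IECs), where filled points were called, open points were not and diamonds carry no test and no interval. Rbp2 and Rdh7 turn from -1.28 and -2.17 at day 3 to 1.24 and 1.29 at day 10, and the points of Isx after day 3 stay between -0.13 and 0.53.

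Over the 24 libraries of the time course, which share conditions and depth, the log2 CPM of the members went together to unequal degrees, as a description. Pearson's r was 0.91 between Adh7 and Aldh1a1, 0.85 between Dhrs3 and Isx and 0.84 between Rbp2 and Rdh7, but -0.05 between Adh4 and Lrat and 0.03 between Lrat and Isx. These libraries include those of day 3 in which Adh4 and Aldh1a1 were chosen for low levels, and those of EtOH at day 10 that bear on the choice of Adh1, so the values of these 3 genes are partly set by the choice. Of 11597 genes with at least 50 counts on average, the gene most like Adh1 was Rxra (r = 0.958), which encodes a partner of the retinoic acid receptors. That of Adh4 was Cdx1 (0.961), an intestinal homeobox factor, and that of Aldh1a1 was Maoa (0.981), a monoamine oxidase. Rbp2 was nearest to Crat (0.991), the carnitine acetyltransferase, Rdh7 to Ptk6 (0.977), an epithelial tyrosine kinase, Dhrs3 to Rab4a (0.970) and Isx to Coro2a (0.972). Bco1 was less close to its nearest gene (Specc1, 0.759), and Adh7 averaged under 50 counts.

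Other genes of vitamin A metabolism were read from a list of 42. In CDK8iIEC-KO/Cdk19-/- against VillinCreERT2 organoids, 10 of 27 tested rose and 1 fell (19.4% of all genes were called), with a median log2 difference of 0.52 against -0.00 for all genes. They included Rbp7, a retinol-binding protein (1.40, SE 0.09, adjusted p = 4.26e-12), Dhrs7 (1.18) and Dhrs9 (1.10), short-chain dehydrogenases, Scarb1, the carotenoid receptor (0.94), and Bco2, the other carotenoid oxygenase (0.74). In CDK8iIEC-KO organoids, where 7.23% of all genes were called, 4 of 27 rose and 1 fell (7 with the aldehyde list below, and 4 without CDK8iIEC-KO replicate 1), and in Cdk8fl/fl/Cdk19-/- organoids 3 of 27 rose and 2 fell (5.25% of all genes were called). Rbp7 was higher in both, by 1.01 (SE 0.09, adjusted p = 9.95e-09) and 1.19 (SE 0.11, adjusted p = 3.79e-09), and Scarb1 was lower in the latter (-0.71, SE 0.12, adjusted p = 0.000109).

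In the time course the list moved as follows. The day 3 contrast chose Adh4 and Aldh1a1, so its counts are given only as a description, and no gene is called from them. At day 3, 2 of 29 met the cutoffs for higher and 5 for lower, where 5.95% of all genes met those for lower. The share of all genes that met those for higher is not given here. Among the 5 lower were Dgat1 (-1.27), an acyltransferase that can esterify retinol, Bco2 (-1.19) and Rxra (-0.77). At day 5, 4 of 29 rose and 1 fell, which is close to the 13.2% of all genes called. At day 7, 10 rose and 0 fell (18.3% of all genes were called), and at day 10, 9 rose and 1 fell (15.8%). Dhrs9 was higher on all 3 days, by 1.41 (adjusted p = 7.16e-10), 1.81 (adjusted p = 1.25e-12) and 1.24 (adjusted p = 2.20e-09). Cyp26b1, which degrades retinoic acid, was lower at day 5 (-1.22, SE 0.22, adjusted p = 0.000265) and at day 10, where it went from 3.80 to 0.525 CPM on average (-2.83, SE 0.51, adjusted p = 0.000188). In EtOH organoids alone Cyp26b1 fell from 44.4 CPM at day 5 to 3.80 CPM at day 10 (-3.55, SE 0.26, adjusted p = 2.26e-09).

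Cyp26b1 was lower with 4-OHT in Wnt3-CM too (9.04 to 1.06 CPM, -3.09, SE 0.20, adjusted p = 3.47e-11) and in the D173A line (-1.42, SE 0.39, adjusted p = 0.037). In Wnt3-CM 6 of 23 genes of the list rose, where 9.45% of all genes did, and 2 fell. Among those that rose were Rbp7 (3.14, SE 0.25, adjusted p = 1.36e-09), Rdh11 (1.60, SE 0.07, adjusted p = 2.14e-13) and Aldh1a7, the paralog of Aldh1a1, which went from 16.6 to 88.8 CPM (2.42, SE 0.10, adjusted p = 1.47e-13). In the D173A line 7 of 28 rose and 3 fell, where 12.3% of all genes were called, including Rarg, a retinoic acid receptor (-1.68, SE 0.18, adjusted p = 9.10e-05). In IECs 2 of 30 rose, where 0.646% of all genes did, Dhrs9 (1.46, SE 0.23, adjusted p = 0.0416) and Rdh16, a relative of Rdh7 (1.39, SE 0.13, adjusted p = 0.0136), and 0 fell. The medians of the list were 0.27 at day 7, 0.35 at day 10, 0.21 in Wnt3-CM, 0.44 in the D173A line and 0.28 in IECs, with those of all genes between -0.01 and 0.02.

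Aldehyde dehydrogenases and other enzymes of aldehyde metabolism formed a list of 16. Of 15 tested, 3 rose and 0 fell in CDK8iIEC-KO/Cdk19-/- against VillinCreERT2 organoids, as at day 7 and at day 10, which is near the shares of all genes called (19.4%, 18.3% and 15.8%), and 7 rose in Wnt3-CM, where 9.45% of all genes did. Against Cdk8fl/fl/Cdk19-/- organoids 5 of 15 rose and 0 fell, where 6.33% of all genes were higher. In the contrast of the double deletion with the sum of the single ones, 4 of 15 were called higher and 1 lower, where 19.6% of all genes were called. Aldh1l1, a formyltetrahydrofolate dehydrogenase, was higher in the double deletion (0.94, SE 0.08, adjusted p = 2.34e-09), at day 7 (1.09, SE 0.07, adjusted p = 1.25e-12), at day 10 (0.73, SE 0.07, adjusted p = 2.54e-09) and in Wnt3-CM (0.99, SE 0.08, adjusted p = 5.47e-10). Cat, the peroxisomal catalase, was higher at day 10 (0.82, adjusted p = 3.20e-09), in Wnt3-CM (1.35, adjusted p = 9.47e-13) and in the D173A line (0.76, adjusted p = 1.17e-05). In IECs Aldh1b1, a mitochondrial aldehyde dehydrogenase, fell by 0.77 on the log2 scale (SE 0.10, adjusted p = 0.0242). The 3 genes of both lists called in IECs became 0 without VillinCreERT2 replicate 1 or 3, 1 without CDK8iIEC-KO/Cdk19-/- replicate 1 or 3, 5 without its replicate 2 and 10 without VillinCreERT2 replicate 2.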

How the data were processed

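Gene counts of 57 libraries were read from the deposited count tables. The table that holds both the Wnt3-CM and the D173A organoids was split into these sets, which gave 5 tables to fit. Per the labels, the libraries were made of PolyA RNA and read as 100 bp pairs, and the submitters' processing notes name STAR 2.5.2, featureCounts, Subread 1.6.3 and mm10. The authors deposited raw counts per gene, without normalization. Strand use in counting is not given in the sources used here. Another 6 columns of per-sample values could not be tied to a genotype and were left out. The D173A organoid columns were assigned by elimination.

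Tables were fitted separately (edgeR 4.0.16, R 4.3.3, filterByExpr, TMM factors, robust quasi-likelihood F test). Adjusted p-values are Benjamini-Hochberg values over all genes tested. A gene was called at an adjusted p under 0.05 and a fold over 1.5, the cutoffs of the study. SEs were derived from the F statistic, as the log2 fold change over its square root, and intervals are 95% intervals from it. CPM scale counts to the TMM-adjusted library size. RPKM divide CPM by the exon length in GENCODE vM21, in which 54723 of 54752 identifiers were found. Fits were tested on simulated data. Totals of 15485959 to 32909565 counts leave genes near 10 counts with wide errors.

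The members and lists were chosen with earlier results of these data known. The text follows all 10 members, called or not, through the comparisons. Of the retinoid and aldehyde lists it names called genes with a mean of at least 50 counts in the higher group, at most 5 in each direction, ranked by fold. At day 3 it names genes that met the cutoffs, as a description. For each member averaging at least 50 counts, it names the gene most like it over the time course. That of Lrat is not reported here. Alternatives were to keep all genes with counts, to keep those with 10 or more counts in each library, to use upper quartile factors, limma-voom (limma 3.58.1) or DESeq2 1.42.0, to fit only the groups compared, to take the replicate number as a block or both control lines together, to search a shorter promoter window, and to leave out each library in turn. Between libraries of equal replicate number, deviations from the group means had a lowest correlation under 0.1 in each comparison numbered in the labels. At day 10 these correlations ran from 0.04 to 0.23, and in IECs from -0.41 to 0.21. So few pairs cannot decide whether the replicates were paired.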

Additional observations from a re-analysis of the deposited data

Results flagged for a closer look

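For 7 of the 10 genes, the difference between CDK8iIEC-KO/Cdk19-/- and control organoids was not the sum of the single deletions on the log2 scale, where 19.6% of all genes were called in this contrast (edgeR's quasi-likelihood test with Benjamini-Hochberg adjustment). The contrast subtracts both single deletions, so C57BL/6 enters it as a control, and the differences between lines enter it too. In this contrast 7 of the 12 enterocyte markers were called higher and 4 of the 5 Paneth cell markers lower, and their part was not tested. The excess over the sum was 1.23 for Rdh7 (SE 0.12, adjusted p = 5.21e-08), 1.28 for Bco1 (SE 0.33, adjusted p = 0.0031), 0.72 for Rbp2 (SE 0.15, adjusted p = 0.0015), 0.71 for Dhrs3 (SE 0.09, adjusted p = 1.50e-06) and 0.63 for Adh7 (SE 0.19, adjusted p = 0.00768). It was -0.76 for Adh4 (SE 0.16, adjusted p = 0.000876) and -0.71 for Aldh1a1 (SE 0.08, adjusted p = 1.34e-07). Adh7 was no longer called without CDK8iIEC-KO/Cdk19-/- replicate 3 (0.58), C57BL/6 replicate 1 (0.57) or 3 (0.58) or Cdk8fl/fl/Cdk19-/- replicate 2 (0.56).

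The response to 4-OHT differed between day 5 and day 10 for 4 genes, as tested by an interaction. The change was 1.60 for Adh4, 1.05 for Aldh1a1, 0.89 for Rbp2 and 1.55 for Rdh7, each in the direction of a higher level with 4-OHT at day 10. Of these, Adh4 was lower than EtOH on both days, Aldh1a1 was lower at day 5 alone, and Rbp2 and Rdh7 were higher at day 10 alone. The call of Adh4 was lost when only the 4 groups compared were fitted (1.59, adjusted p = 0.0548). Adh7, which did not pass (0.89), was called without EtOH replicate 1 of day 10 (1.38).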

How the results depend on the processing

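Of the values of single genes, 134 were recomputed to give 1822 alternative values; 1775 kept direction and call, 34 were no longer called, 13 were newly called and 0 called values reversed. Sign changes of differences called in neither fit were not counted. Low counts limit Adh4 and Adh7 at day 3 and in Wnt3-CM, and the wider spread between libraries limits the IECs. The filter of at least 10 counts in every library tests fewer genes: it moved the 5 called members of day 7 to 3 and the 13 called genes of the retinoid and aldehyde lists to 8, and those of CDK8iIEC-KO from 7 to 4, as DESeq2 did (4). In IECs the 1 called member became 2 with no filter, 2 with DESeq2 and 0 with the replicate block, and the 3 called list genes became 7, 7 and 0 with these, and 5 with at least 10 counts; these causes were not tested. The block changed no other call of a member. No paired analysis was made for Wnt3-CM and the D173A line, because the numbers in their column names are not tied to replicate numbers in the labels. Replicate numbers given here for these libraries are those of the column names. In the last 100 bases of the promoters AGGTCA occurred in 3 of 14 entries (5.88% of all), AGATAA in 2 (3.59%), TTTATNG in 1 (3.96%) and AAGTCCA in 1 (1.21%).

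With each library left out in turn, called members numbered 1 to 1 in CDK8iIEC-KO, 1 to 2 in Cdk8fl/fl/Cdk19-/-, 5 to 6 in CDK8iIEC-KO/Cdk19-/- against VillinCreERT2, 4 to 4 against Cdk8fl/fl/Cdk19-/-, 3 to 4 between controls and 6 to 7 for the excess over the sum. Leaving out genes where they carry no test, they numbered 3 to 3 at day 5, 5 to 5 at day 7, 3 to 4 at day 10, 4 to 5 for the change between days, 2 to 4 for EtOH between days, 5 to 5 in Wnt3-CM, 1 to 4 in the D173A line and 0 to 2 in IECs. Called list genes numbered, in the same order, 4 to 6, 4 to 6, 13 to 15, 13 to 15, 8 to 12, 17 to 18, 4 to 7, 10 to 14, 11 to 14, 6 to 11, 7 to 9, 14 to 16, 10 to 15 and 0 to 10.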
